A study of Mus musculus with 12 samples.

Results

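Among the 26190 genes of the expression table from dissected embryonic hearts and heart organoids, 10 genes make, destroy, bind or sense retinoic acid, and they were chosen by name. They are the retinaldehyde dehydrogenases Aldh1a1, Aldh1a2 and Aldh1a3, the retinaldehyde reductase Dhrs3, the cytochrome P450 enzymes Cyp26a1 and Cyp26b1, the cellular binding proteins Crabp1 and Crabp2, and the nuclear receptors Rara and Rarb. Each name matched 1 row of the table. Atria and ventricles were dissected from C57BL/6 embryonic mouse hearts of stage E11.5 (called E11.5H here), and heart organoids (HOs) of culture day 13 were cut into a part resembling atrium and a part resembling ventricle (atrium-like, ventricle-like), with 3 libraries in each of the 4 groups. HOs were grown from wild-type embryonic stem cells on laminin-entactin with FGF4, and BMP4, the GSK3 inhibitor BIO and LIF were added later in the culture. The labels give C57BL/6 for all libraries, whereas the methods also name a C57BL/6 × JF1 hybrid among the 3 stem cell lines, and which line gave which library is not stated. The methods name no retinoid among the additions to the medium. They do name serum (FBS) in the medium of the embryoid bodies that gave rise to HOs, and the supplement KSR in the HO medium. The retinoid content of neither is stated.

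Retinoic acid is made from vitamin A in a pair of oxidations, of which the Aldh1a enzymes catalyze the last and irreversible step, and Dhrs3 works against it by returning retinaldehyde to retinol. The Cyp26 enzymes oxidize retinoic acid and thereby end its action, the Crabp proteins carry it within the cell, and the Rar receptors bind DNA as dimers with Rxr receptors and switch target genes in its presence. In the early heart tube Aldh1a2 marks the inflow end, and retinoic acid made there is known to favour atrial over ventricular identity, whereas at later stages the epicardium is a main site of Aldh1a2 expression.

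Between 23971258 and 30540993 fragments per library were assigned to genes. Levels are given as FPKM (fragments scaled to the length of the transcript and to the library total, as deposited), and differences as log2 fold changes of edgeR's quasi-likelihood test on the fragment counts. A gene was called when its Benjamini-Hochberg adjusted p over all genes tested was under 0.05 and its absolute log2 fold change was over 1. The spread between replicates was larger in HOs, where the biological coefficient of variation common to all genes was 0.677, than between the chambers of E11.5H, where it was 0.211. The summed level of 16 pan-cardiomyocyte markers was 14295 to 16837 FPKM in E11.5H, 276 to 1104 FPKM in atrium-like parts and 1692 to 4027 FPKM in ventricle-like parts. Between the HO parts all 16 were lower in atrium-like parts (median log2 fold change -1.63), 9 of them at an unadjusted edgeR p under 0.05, beside 5.66% of all genes. None was called, as was none of the 15703 genes tested. The 12 atrial identity genes summed to 155 to 510 FPKM in the libraries labelled atrium-like and to 647 to 1939 FPKM in those labelled ventricle-like, so the label atrium-like was not matched by a higher level of atrial genes. Of the 12, 11 were lower in atrium-like parts, 5 genes had an unadjusted edgeR p under 0.05, and none was called. Markers of other cell types set the HO libraries apart from each other, as shown in the plot of marker lists, and ventricle replicate 3 of E11.5H stood apart in erythroid genes (73428 FPKM, against at most 19228 FPKM in the other ventricles).

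**Figure D1:**
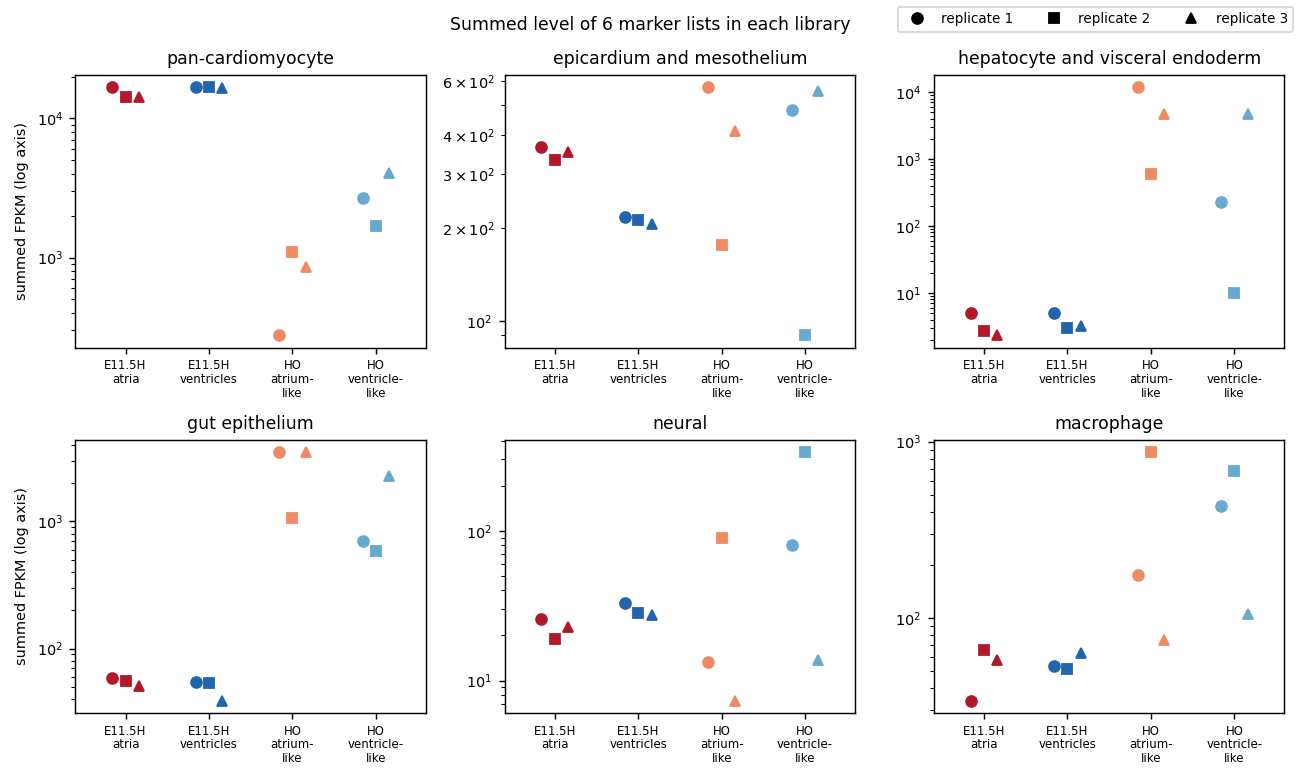
Summed FPKM (log axis) of 6 marker lists in each of the 12 libraries, with colours for the 4 groups and symbols for the replicate number. Hepatocyte and visceral endoderm markers reached at most 5.07 FPKM in E11.5H but 10.1 to 11909 FPKM in HOs, and neural markers were highest in ventricle-like replicate 2 (335 FPKM).

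The promoter windows of RefSeq (GRCm38.p6, from 250 bases before to 50 bases after each start) held 8 of the 10 genes. Receptors of retinoic acid bind direct repeats of a hexamer, and the classical element, DR5, has a pair of them spaced by 5 bases. The hexamer AGGTCA was searched on both strands, along with AGTTCA as a variant of it, then GGTTCA as another, and finally GGGTCA as the last. A DR5 element was found in 2 of the 8 genes, Rarb and Cyp26a1, both long known as direct targets of retinoic acid, against 0.115% of the 27025 genes with a window and 0.0974% of the 32851 windows in the table. Because the genes were chosen for their role in retinoic acid and these targets were known, the shares are a description and no test of enrichment. A lone hexamer is common, at 43.7% of the windows, and stood in those of Aldh1a1 and Rara as well. The windows are shown because they set apart the 2 genes whose levels between embryo and organoid are followed below, with the element in capitals and the rest in lower case. The window of Rarb lies inside the gene, at chr14:16575427-16575726 on the minus strand, and its element spans bases 53 to 37 before the start. The window of Cyp26a1 lies at chr19:37697558-37697857 on the plus strand, and its element spans bases 32 to 16 before the start and reads on the opposite strand.
Rarb: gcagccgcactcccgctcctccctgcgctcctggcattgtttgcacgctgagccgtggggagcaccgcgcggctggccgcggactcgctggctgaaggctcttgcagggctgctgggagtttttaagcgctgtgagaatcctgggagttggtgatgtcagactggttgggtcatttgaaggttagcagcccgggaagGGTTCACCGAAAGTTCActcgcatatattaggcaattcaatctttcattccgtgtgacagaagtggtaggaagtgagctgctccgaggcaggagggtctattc
Cyp26a1: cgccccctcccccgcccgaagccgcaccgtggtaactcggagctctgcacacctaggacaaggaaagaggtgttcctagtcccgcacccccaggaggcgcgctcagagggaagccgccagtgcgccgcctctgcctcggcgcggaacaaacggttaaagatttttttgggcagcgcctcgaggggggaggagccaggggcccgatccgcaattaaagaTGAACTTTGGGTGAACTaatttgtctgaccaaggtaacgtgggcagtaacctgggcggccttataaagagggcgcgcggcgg
A match of letters is a description of the window and does not show that the receptors bound it in these cells.

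Between the chambers of E11.5H, the transcript of the main synthase of retinoic acid was more abundant in atria, and that of a degrading enzyme was more abundant in ventricles. Aldh1a2, Crabp2 and Dhrs3 were higher in atria, Cyp26b1 was higher in ventricles, and Rara and Rarb were expressed in both chambers without a called difference. Of the 9 members tested, 4 were called (3 higher, 1 lower), beside 4.9% of the 14536 genes tested (2.92% higher, 1.97% lower), and 6 had an unadjusted p under 0.05, beside 26.9%. The members' median log2 fold change was 1.03, beside 0.01 over all genes tested. The FPKM of the chambers did not overlap for 5 of the 10 members, beside 33.1% of the genes tested. Of all genes called 59.7% were higher in atria, and 76.9% when the libraries were scaled to pan-cardiomyocyte genes. When the spread was estimated from all 12 libraries together, no member was called by edgeR in this comparison (Aldh1a2 1.66, adjusted p = 0.844). That fit called 0.182% of the 16494 genes it tested.

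Aldh1a2, the main retinaldehyde dehydrogenase of the embryo (GRCm38 chr9:71215789-71296243, plus strand), had 43.1, 69.6 and 57.0 FPKM in atria and 14.9, 16.9 and 18.7 FPKM in ventricles. Every atrial library was above every ventricular library, and the log2 fold change was 1.67 (SE 0.16, edgeR adjusted p = 0.000101). It stayed called without any of the 6 libraries, at 1.51 to 1.82. Aldh1a1 had 2.33 to 4.10 FPKM in atria and 1.99 to 2.24 FPKM in ventricles, which did not overlap but did not pass the test (log2 fold change 0.48, SE 0.25, edgeR adjusted p = 0.25). Aldh1a3 was close to the detection limit, with 0 to 61 fragments in a library of E11.5H. The epicardial and mesothelial list, 10 genes of the tissue that covers the heart, moved in the same direction as Aldh1a2. It summed to 332 to 367 FPKM in atria and 206 to 217 FPKM in ventricles. Of its 10 genes 3 were called higher (Upk1b, Lrrn4 and Sema3d), beside 2.92% of all genes. Tcf21, a transcription factor of epicardial cells, had 57.1 to 75.8 FPKM in atria and 31.6 to 34.3 FPKM in ventricles and stayed under the fold limit (log2 fold change 0.94), and Krt19 went the other way (-0.73). The part of this list in the difference of Aldh1a2 was not tested, and in these bulk libraries fewer cells of a type and less RNA per cell cannot be told apart.

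Dhrs3 (chr4:144892827-144928209, plus strand) had 2.49, 5.23 and 5.86 FPKM in atria and 1.20, 2.02 and 1.92 FPKM in ventricles, and its log2 fold change was 1.32 (SE 0.34, edgeR adjusted p = 0.0263). The groups did not overlap, but atrial replicate 1 was closer to the ventricles than to the other atria. Cyp26b1, an enzyme that degrades retinoic acid (chr6:84571414-84593908, minus strand), was low in both chambers, with 0.163, 0.227 and 0.248 FPKM in atria and 1.04, 0.722 and 0.566 FPKM in ventricles. It was lower in every atrial library and fell by 1.93 on the log2 scale in atria against ventricles (SE 0.41, edgeR adjusted p = 0.0119). Cyp26a1 was counted with at most 21 fragments in any library of E11.5H and did not pass the filter for low counts. Without a single library the test was lost for Dhrs3 in 4 cases (atria replicates 2 and 3 and ventricles replicates 1 and 2, with adjusted p up to 0.114) and for Cyp26b1 in 1 case (ventricles replicate 1, adjusted p = 0.0648), and both kept their sign.

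Of the binding proteins, Crabp1 was the more abundant per length in E11.5H, and its libraries overlapped between the chambers. It had 12.4, 43.5 and 37.2 FPKM in atria and 19.6, 8.52 and 11.6 FPKM in ventricles (log2 fold change 1.16, SE 0.41, edgeR adjusted p = 0.1), and it was called only when atrial replicate 1 was left out (1.53, adjusted p = 0.00975). Crabp2, which delivers retinoic acid to the receptors (chr3:87948693-87953372, plus strand), had 4.24, 13.7 and 16.6 FPKM in atria and 4.26, 1.17 and 0.828 FPKM in ventricles. It was called with a log2 fold change of 2.40 (SE 0.63, edgeR adjusted p = 0.0305), although the lowest atrial and the highest ventricular library were at the same level. The call of Crabp2 was lost without atria replicate 2 or 3 or ventricles replicate 2 or 3, with adjusted p of 0.0762 to 0.121. For all of Dhrs3, Crabp1 and Crabp2, replicate 1 was the lowest atrial library. Skeletal muscle markers summed to 23.0 to 35.1 FPKM in atria and 10.6 to 14.1 FPKM in ventricles. Of the 4 genes tested 3 were called higher and 1 lower, beside 2.92% and 1.97% of all genes. Among them Myod1 had 0.061, 0.817 and 3.42 FPKM in atria and 0 in ventricles, also lowest in replicate 1. Myog was lowest there too (34, 65 and 382 fragments in atria). Tnnt3 (566, 518 and 471 fragments) and Ckm (270, 108 and 215 fragments) were instead highest in atrial replicate 1. The part of this list in the differences was not tested.

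The receptors varied least. Rara had 7.86 to 10.2 FPKM in atria and 7.89 to 9.26 FPKM in ventricles, and its log2 fold change was -0.07 with a 95% interval of -0.38 to 0.25. Rarb had 8.54, 12.8 and 12.6 FPKM in atria and 7.77, 7.91 and 7.73 FPKM in ventricles. All atrial libraries of Rarb were above the ventricular libraries, but the difference of 0.46 (SE 0.14, edgeR adjusted p = 0.0616) passed neither limit. Gene models overlap Rarb on the opposite strand (Top2b and an antisense transcript) and Aldh1a1 on both strands (E030003E18Rik on the same strand), and the use of strand in counting is not stated, so their values carry this uncertainty.

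**Figure D2:**
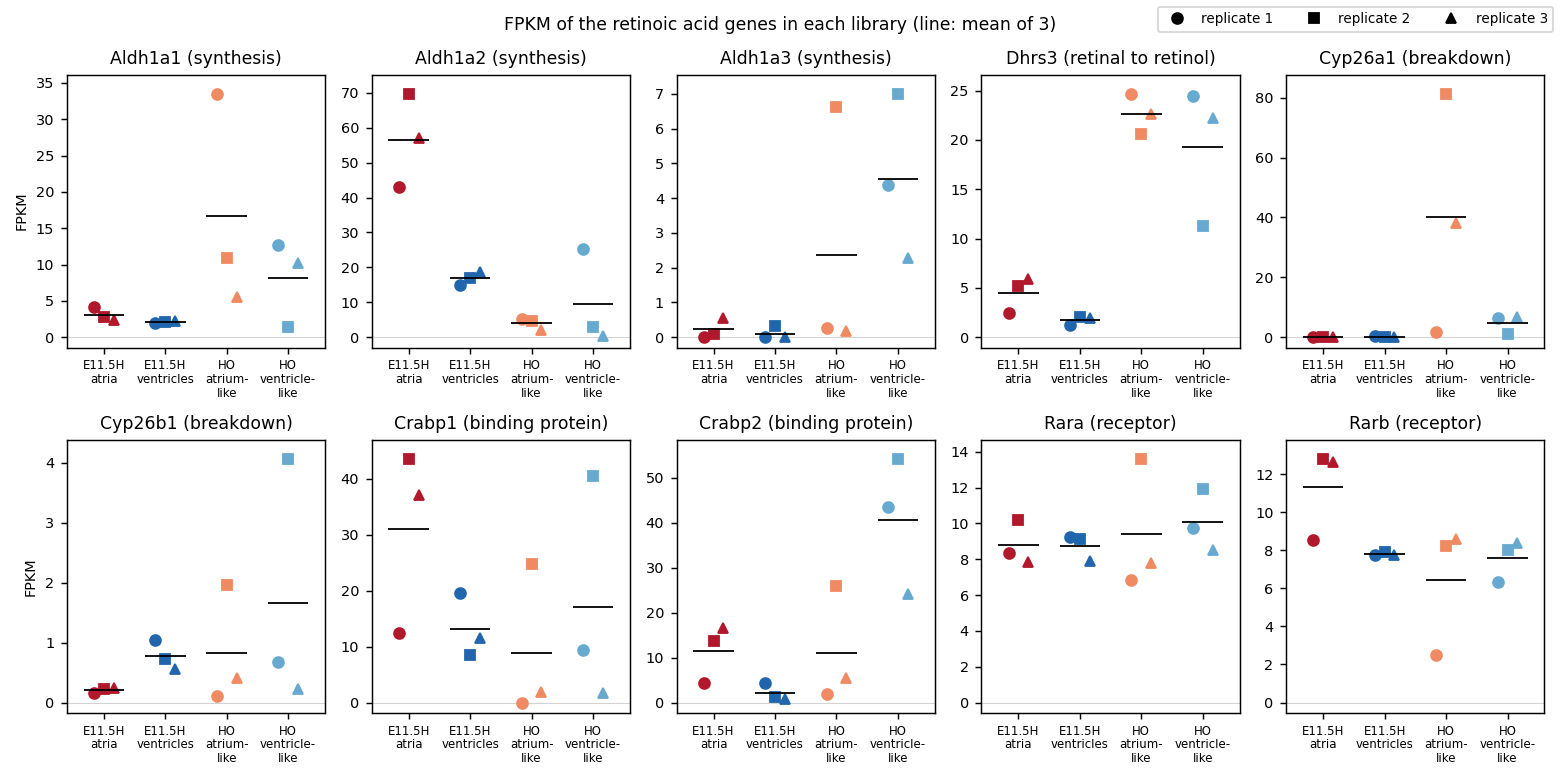
FPKM of each of the 10 genes in each of the 12 libraries, with the mean of each group as a line and the role of the gene in the title. Aldh1a2 was highest in atria of E11.5H (43.1 to 69.6 FPKM), Dhrs3 was at 11.2 FPKM or more in every HO library, and Rara and Rarb stayed between 2.52 and 13.6 FPKM in all libraries.

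When both parts of HOs were compared, no member was called, as was none of the 15703 genes tested by edgeR (0%), and the FPKM of the libraries overlapped for all 10 genes. At an unadjusted p under 0.05, 889 genes passed (5.66%) but no member, and DESeq2 called 59 genes and limma none, again without a member. The nearest to the limit was Cyp26a1 with 1.65, 81.3 and 38.1 FPKM in atrium-like libraries and 6.36, 0.979 and 6.75 FPKM in ventricle-like parts (log2 fold change 3.14, SE 1.31, edgeR adjusted p = 0.75, unadjusted p = 0.0529). Atrium-like replicates 2 and 3 were far above all other libraries, and replicate 1 was below 2 of the ventricle-like libraries. Crabp2 had 1.86, 26.0 and 5.36 FPKM in atrium-like libraries and 43.5, 54.1 and 24.2 FPKM in ventricle-like parts (log2 fold change -1.84, SE 0.87), where only atrium-like replicate 2 reached the ventricle-like range. The intervals were wide, so that for Aldh1a2 the 95% interval of the log2 fold change reached from -4.85 to 2.67 and contained the atrial excess of 1.67 measured in E11.5H. For Rara it reached from -0.65 to 0.74. Scaling to pan-cardiomyocyte genes raised the median of all genes by 1.59 and led to calls of 9.75% of them, 99.0% of these higher. Aldh1a1 (3.78) and Cyp26a1 (4.52) were then called as higher in atrium-like parts.

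Within the HO parts single libraries decided the levels. The highest HO library exceeded the lowest by 71.0 times for Aldh1a2, 83.0 times for Cyp26a1, 38.7 times for Aldh1a3 and 35.2 times for Cyp26b1, but by 2.20 times for Dhrs3 and 1.98 times for Rara. Aldh1a2 had 25.2 FPKM in ventricle-like replicate 1 and 0.354 to 5.26 FPKM in the other 5 HO libraries. The same library was highest among HOs in the epicardial genes Wt1 (16.6 FPKM, against at most 2.31 FPKM in the others) and Tbx18 (3.02 FPKM, against at most 0.621 FPKM), although the sum of the whole epicardial list, 90.0 to 574 FPKM in HOs, was highest in atrium-like replicate 1. In atrium-like replicate 1 Krt19 had the most fragments of this list (19751), whereas Wt1 had 20 and Tbx18 had 16. Ventricle-like replicate 2 was highest among HOs in Aldh1a3 (6.99 FPKM), Cyp26b1 (4.06 FPKM), Crabp1 (40.4 FPKM) and Crabp2 (54.1 FPKM), and atrium-like replicate 2 was the second in Aldh1a3, Cyp26b1 and Crabp1. These libraries also had the highest sums of the 10 neural markers, with 335 and 89.6 FPKM, beside 7.35 to 80.1 FPKM in the other HO libraries. Among the neural markers Tubb3, a tubulin of neurons, had 138 and 42.9 FPKM there, but also 40.9 FPKM in ventricle-like replicate 1, and Sox1 was at 0 in all 12 libraries. Skeletal muscle markers were highest in the same pair of libraries, with sums of 64.5 and 59.6 FPKM beside at most 8.65 FPKM in the other HO libraries, and Myod1, the factor of the muscle lineage, had 19.3 and 10.2 FPKM there and 0 in the others. The endothelial list was highest there as well (50.4 and 71.8 FPKM, beside 6.47 to 28.5 FPKM). Atrium-like replicate 1 had no fragment of Crabp1 and the highest level of Aldh1a1 (33.5 FPKM), beside the highest sum of hepatocyte and visceral endoderm markers (11909 FPKM). The part of these cell types in the levels of the members was not tested.

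From the atria of E11.5H to the atrium-like parts, Aldh1a2 fell and Aldh1a1, Cyp26a1 and Dhrs3 rose. Thus 4 of 10 members were called (3 higher, 1 lower), beside 24.8% of the 15418 genes tested (16% higher, 8.81% lower). From the ventricles to the ventricle-like parts Crabp2 and Dhrs3 rose, 2 of 10 members, beside 18.9% of the 15094 genes tested (11.6% higher, 7.35% lower), a share close to that of all genes. At an unadjusted p under 0.05 it was 4 and 5 members, beside 44.4% and 42.8% of the genes. The direction depends on what the libraries are scaled to. Scaling to equal pan-cardiomyocyte expression raised the median of all genes by 3.97 (log2) in the atrial and by 2.63 in the ventricular comparison. Of all genes tested 92.7% and 88.5% were then called, and 99.3% of those called were higher in both. Of the 10 members 8 and 9 were called, all higher, a share near that of all genes. Otherwise 64.4% and 61.2% of the genes called were higher, and on log2(FPKM + 1) with limma it was 51.5% in the atrial comparison. In each comparison 4 of 10 members had no overlap in FPKM, beside 54.4% and 50.7% of the genes tested. These comparisons share their libraries with those between chambers and between HO parts.

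Aldh1a2 fell from 43.1 to 69.6 FPKM in atria to 5.26, 4.60 and 1.93 FPKM in atrium-like parts, with no overlap, by 3.65 on the log2 scale (SE 0.45, edgeR adjusted p = 0.00388), a direction that flipped under the scaling to cardiomyocyte genes (0.59, which is -3.38 relative to the median shift). In ventricle-like parts it had 25.2, 2.82 and 0.354 FPKM, against 14.9 to 18.7 FPKM in ventricles, and no difference was called (log2 fold change -0.91, SE 1.25). Without ventricle-like replicate 1 the latter value was -3.57 and was still not called. Of the 10 epicardial and mesothelial genes, 7 were called lower and 2 higher in atrium-like parts against atria (median log2 fold change -2.83). The shares over all genes were 8.81% and 16%. Against ventricles 1 was called lower and 2 higher in ventricle-like parts, beside 7.35% and 11.6%. The part of this list in the fall of Aldh1a2 was not tested. Aldh1a1, an aldehyde dehydrogenase that is also abundant in endodermal tissues, had 33.5, 10.8 and 5.60 FPKM in atrium-like parts, each above the 2.33 to 4.10 FPKM of atria (log2 fold change 2.69, SE 0.75, edgeR adjusted p = 0.037). In ventricle-like parts it had 12.7, 1.44 and 10.2 FPKM, of which the second was below all ventricles (log2 fold change 1.87, SE 0.74, edgeR adjusted p = 0.105), and it was called when that library was left out (2.38, adjusted p = 0.00216). Its near-identical paralog Aldh1a7 had 0.490 to 15.5 FPKM in HOs and at most 0.378 FPKM in E11.5H, and reads shared by both could have been split between them, so the level of Aldh1a1 is uncertain. Aldh1a3 was at 4.38, 6.99 and 2.28 FPKM in ventricle-like parts, above every ventricle (log2 fold change 5.35, SE 1.67, edgeR adjusted p = 0.0562), and the call depended on the fit. DESeq2 and limma called Aldh1a3, as did edgeR at a minimum count of 50 (5.38, adjusted p = 0.0439), without ventricles replicate 2 (adjusted p = 0.0231) or without ventricle-like replicate 3 (adjusted p = 0.0392).

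Dhrs3 rose in both parts and varied little among HOs. It had 24.7, 20.6 and 22.7 FPKM in atrium-like libraries and 24.4, 11.2 and 22.2 FPKM in ventricle-like parts, and all 6 libraries were above all 6 libraries of E11.5H. The log2 fold change was 2.52 (SE 0.36, edgeR adjusted p = 0.00569) against atria and 3.40 (SE 0.40, edgeR adjusted p = 0.0035) against ventricles, and Dhrs3 stayed called without any library of either comparison. Cyp26a1 rose from 0 to 7 fragments per library in atria to 84, 4906 and 2207 fragments in atrium-like parts (log2 fold change 9.04, SE 1.67, edgeR adjusted p = 0.0115). Every atrium-like library was above every atrium, yet they spread over 1.65 to 81.3 FPKM. In ventricle-like parts Cyp26a1 had 6.36, 0.979 and 6.75 FPKM, above all ventricles (0.368 FPKM in ventricles replicate 1 and 0 in the others), and the log2 fold change was 5.17 (SE 1.77, edgeR adjusted p = 0.0723). DESeq2 and limma called it, as did edgeR with all 12 libraries in 1 fit (adjusted p = 0.0387), without ventricles replicate 1 (adjusted p = 0.0481) or without ventricle-like replicate 2 (adjusted p = 0.0447). Cyp26b1 had 0.115 to 1.96 FPKM in atrium-like libraries and 0.223 to 4.06 FPKM in ventricle-like parts and was called in neither comparison. The calls of Aldh1a1 and Cyp26a1 in the atrial comparison were lost when any of the 3 atria was left out, with adjusted p of 0.0961 to 0.127 for Aldh1a1 and 0.051 to 0.0585 for Cyp26a1. Calls over all genes also fell in these fits, to 10.3% to 10.8% from 24.8% in the main fit. Cyp26b1 (2.48, adjusted p = 0.0496) was called without atrium-like replicate 1, as was Crabp1 (-4.85, adjusted p = 0.0318) without atrium-like replicate 2.

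Crabp2 rose in ventricle-like parts, where its 43.5, 54.1 and 24.2 FPKM were above the 0.828 to 4.26 FPKM of ventricles (log2 fold change 4.20, SE 0.72, edgeR adjusted p = 0.0103). Against atria, the 1.86, 26.0 and 5.36 FPKM of atrium-like parts lay on both sides of the 4.24 to 16.6 FPKM measured there, and the log2 fold change was 0.01 (SE 0.92). Without ventricles replicate 2 the ventricular difference of Crabp2 was 3.89 with an adjusted p of 0.0564, in a fit that called 7.0% of all genes. Crabp1 had 0, 24.7 and 1.84 FPKM in atrium-like libraries and 9.37, 40.4 and 1.65 FPKM in ventricle-like parts, which overlapped the chambers, and it was called in neither comparison.

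Rara and Rarb showed no called difference between HOs and E11.5H. Rara had 6.86 to 13.6 FPKM in atrium-like libraries and 8.51 to 11.9 FPKM in ventricle-like parts, with log2 fold changes of 0.24 (95% interval -0.41 to 0.89) against atria and 0.11 (-0.32 to 0.53) against ventricles. Rarb had 2.52, 8.22 and 8.60 FPKM in atrium-like libraries and 6.33, 8.02 and 8.38 FPKM in ventricle-like parts, with log2 fold changes of -0.68 (-1.84 to 0.48) and -0.14 (-0.55 to 0.28). Its lowest library was atrium-like replicate 1. Thus of the 2 genes with a DR5 element in their promoter window, Cyp26a1 was higher in all HO libraries than in E11.5H and Rarb was not. The row of Rarb covers 4 transcripts, that of Cyp26a1 1, and the Rarb window lies inside the gene. The level of Rarb therefore cannot be read as that of transcripts from this window alone. The third receptor, Rarg, rose in atrium-like parts, to 1.90, 3.49 and 3.43 FPKM from 0.748 to 1.24 FPKM in atria (log2 fold change 1.77, SE 0.37, edgeR adjusted p = 0.0163).

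**Figure D3:**
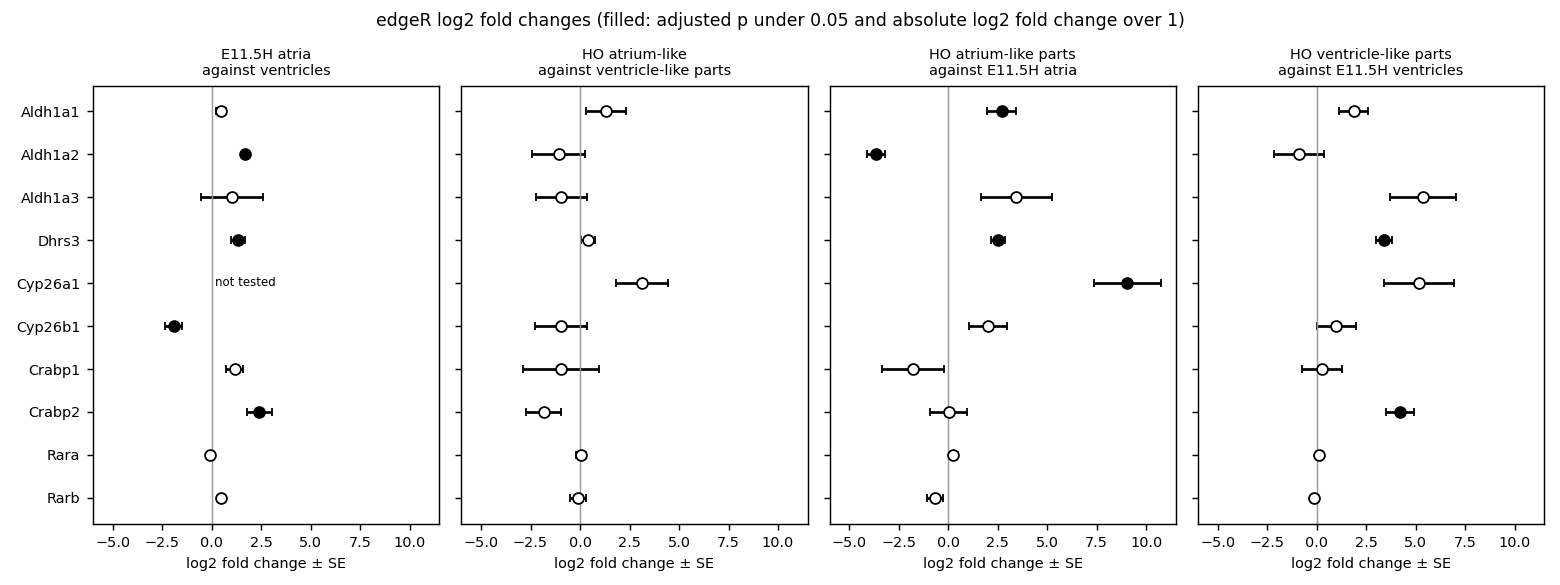
Log2 fold changes with their standard errors for the 10 genes in the 4 comparisons of groups, filled where a gene was called. Aldh1a2 is filled at 1.67 in the first panel and at -3.65 in the third, and no gene is filled between the HO parts. Scaling to cardiomyocyte genes, which is not drawn, turned the -3.65 to 0.59 while it raised the median of all genes by 3.97.

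Shares within a library need no scaling between libraries. In E11.5H, Aldh1a2 made up 91.3% to 96% of the summed FPKM of the 3 Aldh1a genes in atria and 87.7% to 89.3% in ventricles. In HOs its share was 13.5% to 25.0% in atrium-like parts, where Aldh1a1 had 49.1% to 85.8%, and 2.76%, 25.1% and 59.5% in ventricle-like parts. The leading synthase thus differed between HO libraries, being Aldh1a2 in ventricle-like replicate 1, Aldh1a3 in ventricle-like replicate 2 (62.2%) and Aldh1a1 in the other 4. Crabp1 held 69.2% to 93.3% of both Crabp genes in E11.5H and 0% to 48.7% in HOs, so that the leading binding protein changed from Crabp1 to Crabp2 in all 6 HO libraries. Among the 3 Rar genes, Rara held 36.1% to 50.6% in E11.5H, against 39.3% to 60.8% in HOs, and Rarg held 3.67% to 9.96% and 13.5% to 18.0%. Of the 3 Cyp26 genes, Cyp26a1 held 93.5% to 98.5% in atrium-like parts and 19.4%, 88.4% and 96.3% in ventricle-like parts.

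**Figure D4:**
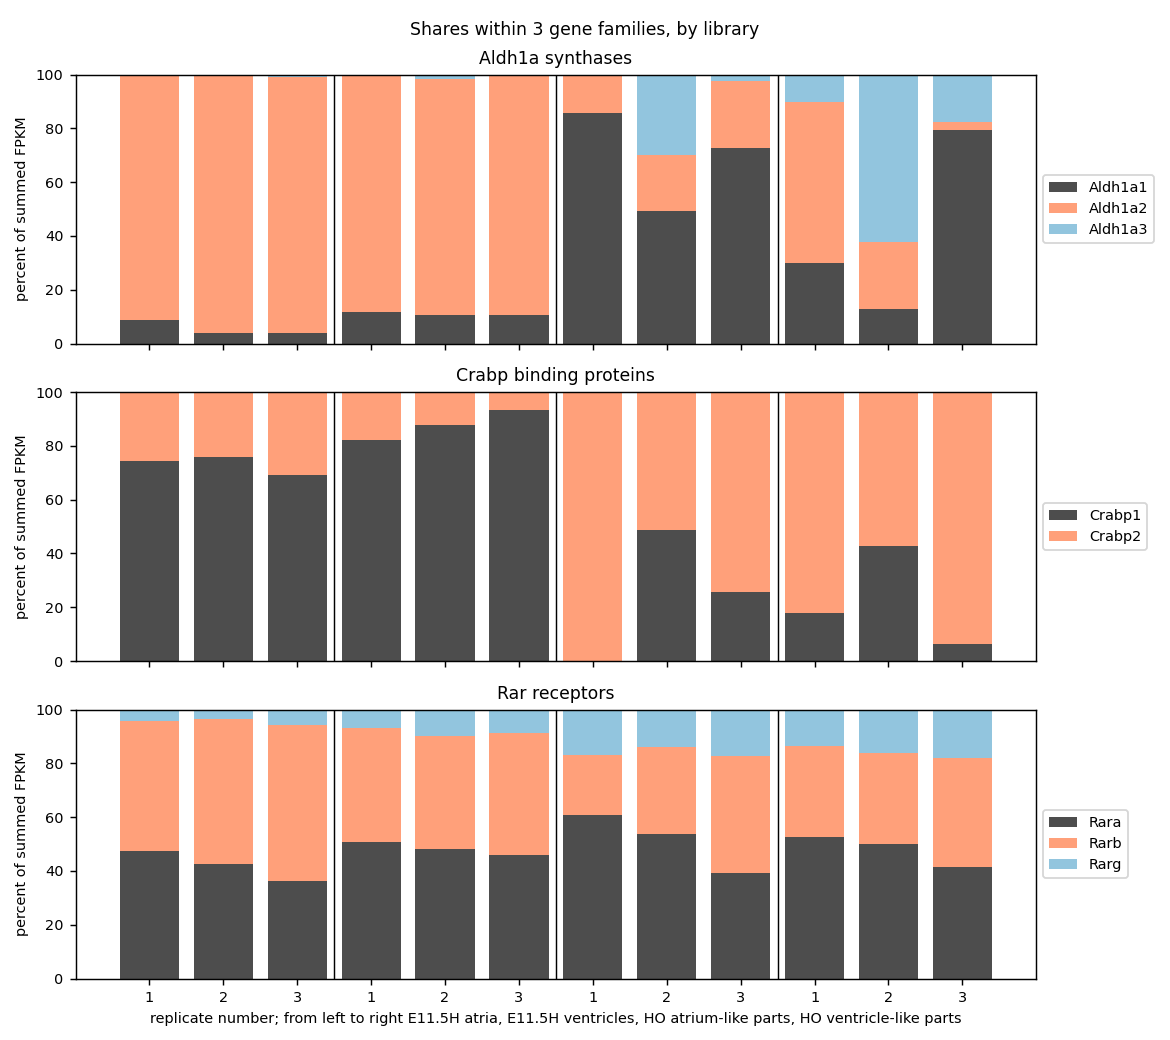
Share of each gene in the summed FPKM of its family (0 to 100 percent) in each of the 12 libraries, for the Aldh1a, Crabp and Rar genes. Aldh1a2 fills 87.7% to 96% of the bars of E11.5H and at most 59.5% of the bars of HOs, and Crabp1 at least 69.2% and at most 48.7%.

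Whether the chamber difference itself differed between HOs and E11.5H was tested over all 12 libraries. No member was called by edgeR, beside 0.152% of the 16494 genes tested (0.0243% higher, 0.127% lower). At an unadjusted p under 0.05 Crabp2 alone of the members passed, beside 11.7% of the genes. The atrial excess of Crabp2 in E11.5H faced a ventricular excess in HOs, an interaction of -4.19 (SE 1.27, edgeR adjusted p = 0.273, unadjusted p = 0.00758), which DESeq2 called (adjusted p = 0.0189) and limma did not. Without atrium-like replicate 2 edgeR called it as well (-5.64, adjusted p = 0.0492). For Aldh1a2 the interaction was -2.76 (SE 1.46, edgeR adjusted p = 0.49), and without ventricle-like replicate 1 it was -0.11. Of the genes called 16% had a positive interaction, and 61.5% after scaling to pan-cardiomyocyte genes.

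The other genes of the pathway were taken from 6 lists with 44 genes in all. In atria of E11.5H against ventricles 8 of the 36 genes tested were higher and none was lower, beside 2.92% and 1.97% of all genes. The rises were spread over the uptake list (1 of 6 tested, the retinol-binding protein receptor Stra6), the retinol dehydrogenases (1 of 8, Rdh10, which makes retinaldehyde), the other receptors (1 of 4, Rxrg) and the response genes (5 of 11). The 3 largest were response genes, the homeobox genes Hoxa5 and Hoxa4 and the orphan receptor gene Nr2f1. Hoxa5 had 3.76, 12.1 and 10.2 FPKM in atria and at most 0.116 FPKM in ventricles (log2 fold change 7.13, SE 0.67, edgeR adjusted p = 9.41e-05), and Hoxa4 had 1.29, 4.07 and 3.46 FPKM and at most 0.183 FPKM (5.17, SE 0.87, adjusted p = 0.00319). Nr2f1, which with Nr2f2 supports atrial identity, had 11.2, 13 and 11.9 FPKM in atria and 0.163 to 0.80 FPKM in ventricles (4.37, SE 0.37, adjusted p = 5.25e-05). The median log2 fold change of the response list was 2.43, beside 0.01 over all genes, with 9 positive and 2 negative values among the 11 tested. The summed level of the list nevertheless overlapped between the chambers, with 154 to 172 FPKM in atria and 165 to 178 FPKM in ventricles. Tgm2, the response gene with the most fragments, had 11602, 10410 and 11180 fragments in atria and 15544, 16757 and 14240 in ventricles. Receptor cofactors were not called in any comparison.

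Between the HO parts none of the 37 genes tested was called by edgeR, DESeq2 or limma, and 2 had an unadjusted p under 0.05, beside 5.66% of all genes. Against atria 13 of the 40 genes tested were higher in atrium-like parts and 3 were lower, beside 16% and 8.81% of all genes. Against ventricles 10 of 36 were higher in ventricle-like parts and none was lower, beside 11.6% and 7.35% of all genes. Uptake and storage genes rose in 6 of 8 and 4 of 8 cases and retinol dehydrogenases in 5 of 9 and 4 of 9. Of the 12 response genes tested in atrium-like parts, 1 was called higher and 3 lower. In ventricle-like parts 2 of the 8 tested were called higher and none lower. The largest rises in atrium-like parts were Cdx1, an intestinal homeobox gene, and the retinol-binding proteins Rbp2 of the gut and Rbp4 of the liver and plasma. Cdx1 had no fragment in atria and was at least 104-fold higher by the mean of the group, and at least 53.3-fold in its lowest library, counted against 3 fragments in the shallowest atrial library. Rbp2 had 2052, 252 and 339 FPKM, against at most 1.57 FPKM in atria (log2 fold change 10.31, SE 1.43, edgeR adjusted p = 0.00532), and Rbp4 had 427, 30.9 and 673 FPKM, against at most 0.806 FPKM (9.78, SE 1.56, adjusted p = 0.0075). In ventricle-like parts the largest were the alcohol dehydrogenase gene Adh7, at least 37.3-fold higher by the mean (16.7-fold in the lowest library) than in ventricles without a fragment, the plasma carrier Ttr with 17.9, 25.6 and 281 FPKM (log2 fold change 8.15, SE 1.49, edgeR adjusted p = 0.0121) and Rbp4 with 16.6, 3.23 and 633 FPKM (7.98, SE 2.22, adjusted p = 0.0402). Without ventricle-like replicate 3 the value fell to 3.52 for Rbp4 and to 5.80 for Ttr. All of Adh7, Ttr and Rbp4 lost their call when any ventricle was left out, with adjusted p of 0.0518 to 0.145. Calls over all genes also fell in these fits, to 7.0% to 7.57% from 18.9% in the main fit.

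Markers of endoderm also rose. Hepatocyte and visceral endoderm markers, a list that itself contains Rbp4, were higher in 12 of 12 cases in atrium-like parts (590 to 11909 FPKM, against 2.32 to 5.07 FPKM in atria) and in 4 of 8 tested in ventricle-like parts (10.1 to 4664 FPKM, against 2.97 to 5.0 FPKM). Gut epithelium markers were higher in 12 of 12 and 8 of 10 cases, with 582 to 3505 FPKM in HOs and 39.0 to 58.7 FPKM in E11.5H. The shares of all genes called higher were 16% in the atrial and 11.6% in the ventricular comparison. Among hepatocyte markers Afp was at 1.88 to 3741 FPKM in HOs, and Alb was at 0 in ventricle-like replicate 1. The levels of Ttr did not follow the list throughout, since ventricle-like replicate 2 had the lowest sum of hepatocyte markers among HOs (10.1 FPKM) but more Ttr (25.6 FPKM) than replicate 1 (17.9 FPKM, with a sum of 231 FPKM). Their part in the retinoid genes was not tested.

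The 3 falls in atrium-like parts were response genes that were high in atria, namely Hoxa4 (-5.73, SE 0.77, edgeR adjusted p = 0.00491), Nr2f1 (-3.21, SE 0.39, edgeR adjusted p = 0.00381) and Nr2f2 (-1.72, SE 0.23, edgeR adjusted p = 0.00458), of which Nr2f1 and Nr2f2 turned positive under the scaling to cardiomyocyte genes (0.58 and 2.20, or -3.39 and -1.77 relative to the median shift). Nr2f1 had 0.655, 2.0 and 0.911 FPKM in atrium-like parts and 2.73, 2.56 and 1.12 FPKM in ventricle-like parts. Nr2f2 had 3.37, 6.72 and 3.84 FPKM and 6.65, 6.58 and 5.76 FPKM, against 16.6 to 17.5 FPKM in atria and 2.13 to 2.57 FPKM in ventricles. The HO levels of Nr2f2 therefore lay between those of the chambers. In the interaction of chamber and tissue, 2 of the 40 wider genes tested were called, beside 0.152% of all genes. They were Nr2f1 (-5.10) and Nr2f2 (-3.11), both lower.

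**Figure D5:**
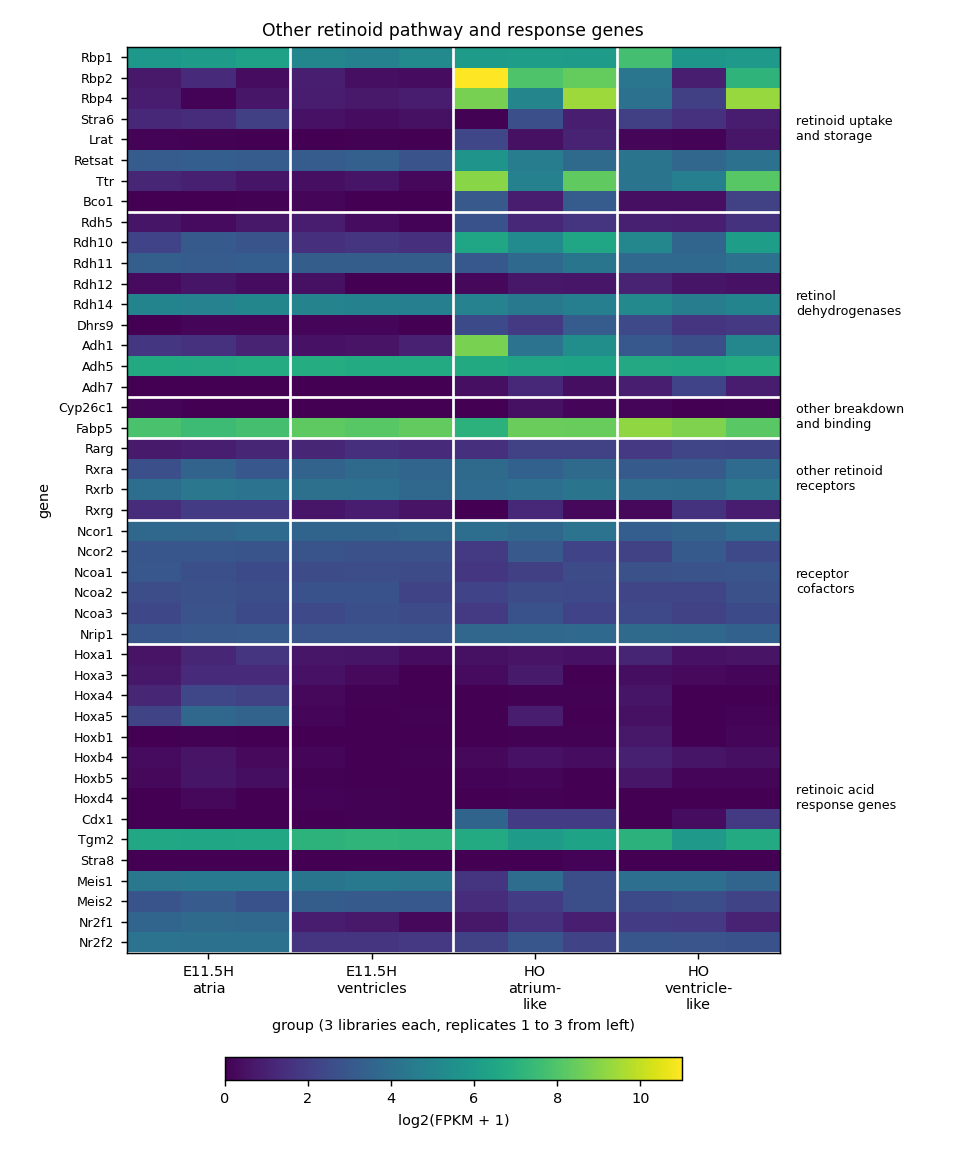
Level of 44 other retinoid genes as log2(FPKM + 1) in each of the 12 libraries, grouped by list. Hoxa4, Hoxa5, Nr2f1 and Nr2f2 are brighter in atria than in the other 3 groups, and Rbp2, Rbp4, Ttr, Rdh10 and Adh1 are brightest in HO libraries.

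For each member up to 3 genes with the most similar profile over the 12 libraries were named by the root mean square difference (RMS) of log2(CPM + 1), each gene centred on its own mean. Nearest to Aldh1a2, which had a standard deviation of 1.92 on this scale, were Lamc3, Tcf21 and Thsd7b (RMS 0.84 to 0.89). Tcf21, also on the epicardial list, had means of 65.7 FPKM in atria, 32.7 FPKM in ventricles, 17.5 FPKM in atrium-like libraries and 10.4 FPKM in ventricle-like parts. Nearest to Aldh1a1 were Acot1, Ces1f and Mcoln2 (0.48 to 0.55), and to Aldh1a3 Cxcl1, Tmem200a and Mmp3 (0.63 to 0.71). Dhrs3 was matched closely by Mgst1, Abcc3 and Irgm2 (0.38 to 0.42, beside a standard deviation of 1.52). For Cyp26a1, the most variable member with a standard deviation of 2.48, they were F3, Fxyd3 and Gkn1 (0.85 to 1.10), and for Cyp26b1 Gem and Dkk1 (0.39 and 0.40). Crabp1 was nearest to Lrrn3, F2r and Ephb6 (0.55 to 0.63) and Crabp2 to Moxd1, Hoxb2 and Ttyh1 (0.72 to 0.76). The receptors had the smallest standard deviations of the members (0.19 for Rara and 0.46 for Rarb). Rara was matched by Tsr1, Extl2 and Lrrc58 (0.10 to 0.13) and Rarb by Ppwd1 and Amer1 (0.20 and 0.22). The points share their 12 libraries, and no test was made.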

How the data were processed

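RNA-seq data of 12 libraries (atria and ventricles of E11.5H, HO parts labelled atrial and ventricular, 3 each) were grouped by the labels. The labels name a TruSeq kit, and the methods a commercial provider. Alignment by the authors used STAR with the GRCm38/mm10 genome, and they deposited estimated counts (fragments per gene, not normalized) and FPKM. FPKM, as deposited by the authors, is scaled by transcript length and library total and not for composition. The counting tool, versions and strand setting are not given in the sources used here. Fractional counts (23.8% of values) were rounded.

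The main test was edgeR's quasi-likelihood test (version 4.0.16, under R 4.3.3) with TMM factors and filterByExpr at a minimum count of 10, run over all genes, with only the groups compared in each fit, and all 12 libraries for the interaction. DESeq2 1.42.0 and limma 3.58.1 were alternatives. Standard errors are those of the log2 fold change, and 95% intervals use them with the residual degrees of freedom. Scripts were tested on simulated data. A count of 0 allows 0.0982 to 0.125 CPM (3 counts, counting error only). Named are all 10 members, in each comparison up to 3 called rises and 3 called falls of the 6 wider lists with at least 1 FPKM, and up to 3 nearest genes per member with at least 1 CPM, of which some are not reported here. The members and lists were chosen with earlier results of these data known. Nothing but the labels and methods ties the replicates to separate animals or cultures, and the methods call the dissected HOs biological triplicates. The p-values set each difference against the spread between these samples only. Other samples of the study were not analysed here. Alternatives for the wider lists were chosen after seeing the data. Figures used matplotlib 3.10.9 (Python 3.11.15).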

Additional observations from a re-analysis of the deposited data

Results flagged for a closer look

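None of the members met a criterion for a closer look. Nr2f1 and Nr2f2, both also on the atrial identity list, were picked out because their chamber difference differed between HOs and E11.5H by the interaction test over all 12 libraries. For Nr2f1 the interaction was -5.10 on the log2 scale (SE 0.81, edgeR adjusted p = 0.0488). Its call was lost when any of 10 of the 12 libraries was left out, the exceptions being atrium-like replicate 2 and ventricle-like replicate 3, and the adjusted p then reached up to 0.187. For Nr2f2 the interaction was -3.11 (SE 0.27, edgeR adjusted p = 0.00285), and it kept its call without any single library, at -3.35 to -2.99, but not when scaled to pan-cardiomyocyte genes (-1.82, adjusted p = 0.159). Groups of 3 libraries are too small for a test of single outlying libraries.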

How the results depend on the processing

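Of 574 alternatives for the members' log2 fold changes other than leaving out a library, 510 kept direction and call, 25 gained and 8 lost a call and 31 reversed. Of 354 that left out a library, the numbers were 310, 9, 16 and 19. The cause was not tested. In E11.5H the count of members called went from 4 to 2 with limma on log2(FPKM + 1), where 2.66% of all genes were called. It went to 0 with all 12 libraries in 1 fit, where 0.182% were called and the wider lists went from 8 to 2. The main fit called 4.9% of all genes. Scaled to pan-cardiomyocyte genes, members called between HO parts, in the atrial and in the ventricular comparison were 2, 8 and 9. These fits called 9.75%, 92.7% and 88.5% of all genes. Wider genes called were 10, 34 and 35, with 0 in the interaction. In the ventricular comparison DESeq2 called 5 members and each limma fit 4. In the interaction DESeq2 called 1 member, and total counts left 1 wider gene. Leaving out a library gave 2 to 5 members in E11.5H, 0 between HO parts, 2 to 5 in the atrial and 2 to 4 in the ventricular comparison and 0 to 1 in the interaction, and 7 to 9, 0, 10 to 20, 1 to 12 and 1 to 3 wider genes. Over all genes these fits called 3.62% to 5.13%, 0%, 10.3% to 34.7%, 7.0% to 23.9% and 0.0117% to 1.27%. Shares of CPM moved Aldh1a2 in ventricles to 85.0%, Cyp26a1 in atrium-like parts to 91.4% and Rara in ventricles to 52.2%. Lone hexamers gave 4 members in place of 2.

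Replicate numbers are shared between groups, but same-numbered samples deviated together only in part (correlations 0.027, 0.053 and 0.094 in E11.5H, and -0.092, 0.646 and 0.429 in HOs, where atrium-like 1 was closest to ventricle-like 3, at 0.536). Whether same-numbered samples came from the same organoids or hearts is not stated, and these correlations cannot decide it. The main test did not use the numbers as pairs. With the replicate block 3, 0, 4, 3 and 0 members were called in the 5 tests (Crabp2 was lost in E11.5H, adjusted p = 0.0895, and Aldh1a3 gained in the ventricular comparison, adjusted p = 0.0483), and wider genes fell to 4 in the ventricular comparison and 1 in the interaction.

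Reversals other than by leaving out a library were, in E11.5H, Rara 0.031 (total counts) and 0.17 (cardiomyocyte scaling). Between HO parts they were Aldh1a2 0.86 (cardiomyocyte scaling), 0.19 and 0.20 (limma) and 0.48 (block), Rarb 1.20 (cardiomyocyte scaling), and Rara -0.083 (total counts), -0.13 and -0.15 (limma). In the atrial comparison cardiomyocyte scaling gave Aldh1a2 0.59, Rarb 2.98, Crabp1 1.54, Nr2f1 0.58 and Nr2f2 2.20, and Crabp2 was -0.048 (total counts), -0.36, -0.49 and -0.61 (limma), -0.022 (no filter) and -0.47 (block). In the ventricular comparison cardiomyocyte scaling gave Aldh1a2 1.65 and Rarb 2.48, Rarb was 0.0019 with total counts, and Crabp1 was -0.44, -0.37 and -0.52 (limma) and -0.72 (block). In the interaction Rara was -0.11 (total counts), -0.13 and -0.15 (limma), and cardiomyocyte scaling gave Rarb 0.50 and Dhrs3 0.75. The reversals under cardiomyocyte scaling restate its shift of all genes: relative to the median shift all of them were negative, as without it (in the atrial comparison Rarb -0.99 and Crabp1 -2.43).

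Leaving out a library reversed these, given as lowest and highest value. In E11.5H the range was -0.94 to 7.60 for Aldh1a3 and -0.17 to 0.0032 for Rara. Between HO parts it was -1.66 to 1.55 for Aldh1a2, -2.42 to 0.88 for Cyp26b1, -0.18 to 0.16 for Rara, -0.41 to 0.22 for Rarb and -4.01 to 0.65 for Crabp1. In the atrial comparison it was -0.012 to 0.33 for Rara and -1.45 to 0.46 for Crabp2, and in the ventricular comparison -0.84 to 1.46 for Cyp26b1, -0.0044 to 0.18 for Rara and -1.32 to 0.76 for Crabp1. In the interaction it was -0.41 to 1.28 for Aldh1a1, -8.46 to 0.052 for Aldh1a3, -2.02 to 4.44 for Cyp26a1, -0.46 to 2.83 for Cyp26b1 and -0.11 to 0.24 for Rara. Fitted values of Aldh1a3 and Cyp26a1 in E11.5H rest on few fragments.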
